A study of Mus musculus with 12 samples.

Results

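The HoxC cluster is a row of 9 Hox genes on mouse chromosome 15, running from Hoxc13 at its low-coordinate end to Hoxc4 at its high-coordinate end. Its members were taken by position alone, as every row of the deposited table that overlaps the cluster on the mm9 build. The rule found 14 transcripts. Summing transcripts that overlap on 1 strand gave 11 loci, out of 26699 loci in the whole table. These were the 9 Hoxc genes, the long non-coding RNA Hotair and the microRNA precursor Mir196a-2. A second microRNA precursor, Mir615, lies inside Hoxc5 and was summed with it. Of the 11 loci, 8 passed the filter on low counts and were tested, and Hoxc12, Hotair and Mir196a-2 are given as values only.

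RNA was sequenced from tdTomato reporter cells of newborn mouse kidney (postnatal day 0), sorted by flow cytometry as Six2-expressing progenitors. The titles give 4 groups: control low (n = 4), mutant low (n = 4), control high (n = 2) and mutant high (n = 2). All 4 groups carry the R26R-tdTomato construct, and no sample label states the mutant allele, the Cre driver, or which signal was sorted as high or low. The series title names Eed as the gene under study. The labels do not tie samples to animals, and the p-values below therefore reflect only how these libraries vary, which can be technical variation.

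Hox genes encode transcription factors that bind DNA through a homeodomain, and their order along each of the HoxA, HoxB, HoxC and HoxD clusters follows the order in which they are used along the body axis. Genes at the Hoxc13 end are used most posteriorly, and genes at the Hoxc4 end more anteriorly. EED is a core subunit of Polycomb repressive complex PRC2, which places methyl marks on histones, and Hox clusters are among its best-known targets. In the kidney, the paralogue group 11 genes Hoxa11, Hoxc11 and Hoxd11 are known for their role in the development of the metanephros.

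The homeobox, the part of a Hox gene that encodes the homeodomain, is the stretch most alike between paralogues, so it is shown for the group 13 genes, the group in which the largest change of the cluster fell. Each sequence is 180 bases of the sense strand of a GENCODE M21 transcript (GRCm38), 5′ to 3′. Capitals mark the bases that differ from Hoxc13.
Hoxc13: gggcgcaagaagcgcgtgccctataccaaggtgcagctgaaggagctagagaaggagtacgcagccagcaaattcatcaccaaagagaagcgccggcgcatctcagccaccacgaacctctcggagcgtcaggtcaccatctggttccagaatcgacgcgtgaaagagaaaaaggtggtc
Hoxa13: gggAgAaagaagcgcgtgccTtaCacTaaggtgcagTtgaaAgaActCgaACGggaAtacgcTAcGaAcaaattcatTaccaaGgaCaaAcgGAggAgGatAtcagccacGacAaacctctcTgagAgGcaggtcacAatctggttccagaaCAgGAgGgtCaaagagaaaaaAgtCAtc
Hoxb13: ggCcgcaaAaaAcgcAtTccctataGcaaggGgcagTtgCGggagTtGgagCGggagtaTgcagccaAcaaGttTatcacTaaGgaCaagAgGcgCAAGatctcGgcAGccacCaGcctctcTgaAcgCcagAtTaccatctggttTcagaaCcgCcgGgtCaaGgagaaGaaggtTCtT
Hoxd13: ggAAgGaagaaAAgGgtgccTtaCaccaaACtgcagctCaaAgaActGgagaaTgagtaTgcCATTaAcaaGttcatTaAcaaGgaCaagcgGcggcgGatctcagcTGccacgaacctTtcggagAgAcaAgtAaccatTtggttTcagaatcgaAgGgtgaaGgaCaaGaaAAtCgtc
The Hoxa13, Hoxb13 and Hoxd13 homeoboxes differed from that of Hoxc13 at 41, 47 and 45 of 180 bases, an identity of 77.2%, 73.9% and 75.0%. The longest run of identical bases between the Hoxc13 transcript and the Hoxa13, Hoxb13 and Hoxd13 transcripts was 16, 12 and 14 bases. How the authors treated fragments with several alignments is not given in the sources used here.

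Library totals ran from 4549011 to 12365078 fragments. Levels are given as CPM, fragments divided by TMM-scaled library size, and a group with no fragment was set to a floor of 3 fragments over the group. Eed measured 14.4, 13.03, 15.4 and 13.4 CPM in the 4 control low libraries and 7.27, 11.1, 5.44 and 9.90 CPM in the 4 mutant low libraries. It measured 8.73 and 9.06 CPM in control high and 4.73 and 7.25 CPM in mutant high. The mutant groups lay below the control groups without overlap, but neither difference passed the test (edgeR adjusted p = 0.107 in low and 0.291 in high cells). Six2, the transcription factor that marks nephron progenitors, ran from 1358 to 1965 CPM in control low libraries and from 693 to 959 CPM in mutant low libraries. In the high groups Six2 was at 63.4 and 16.7 CPM in control and 97.1 and 113 CPM in mutant, so the high groups held little of the RNA that defines the labelled cell type. The summed level of 4 tubule markers (Lrp2, Slc34a1, Umod and Slc12a1) was 6218 to 6663 CPM in control high and 1254 to 1282 CPM in mutant high, against 173 to 688 CPM in the control low libraries and 9.14 to 58.2 CPM in the mutant low ones. Of these 4, Slc12a1 was at 0 in at least 1 mutant low library. The control high libraries were also the smallest as a pair, and chromosome M took 4.51% and 10.3% of their fragments and at most 1.96% of any other library. In such sorted bulk samples, fewer cells of a type and less RNA per cell cannot be told apart.

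In control low cells the cluster's RNA came from its middle. Hoxc9 (uc007xxa.1, chr15:102807463-102814875), known for setting thoracic identity in the spinal cord, was at 212, 170, 254 and 338 CPM in the 4 libraries. Hoxc10 (uc007xwz.1, chr15:102797296-102802152), a posterior gene known from lumbar motor neurons and the hindlimb, was at 272, 174, 182 and 212 CPM. Hoxc8 (uc012aaf.1, chr15:102820970-102824685), a thoracic patterning gene, was at 36.1, 36.8, 49.8 and 88.4 CPM. These 3 neighbours held most of the fragments, and the remaining genes lay at or below 11.7 CPM in every control low library.

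Per kilobase of spliced transcript, which allows genes to be compared, Hoxc10 had 110 ± 23.2 and Hoxc9 103 ± 30.2 CPM per kb in control low cells (SD, n = 4), and the 2 genes did not differ beyond their spread. Hoxc8 followed with 28.2 ± 13.2 CPM per kb. Hoxc5, Hoxc4 and Hoxc11 had 2.90 ± 0.988, 1.74 ± 0.457 and 1.28 ± 0.888 CPM per kb, and the ranges of these neighbours overlapped. Hoxc13 was lowest among the tested genes with a length at 0.0686 ± 0.104 CPM per kb. Hoxc6 was left out of this order because no spliced length was taken for it.

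**Figure D1:**
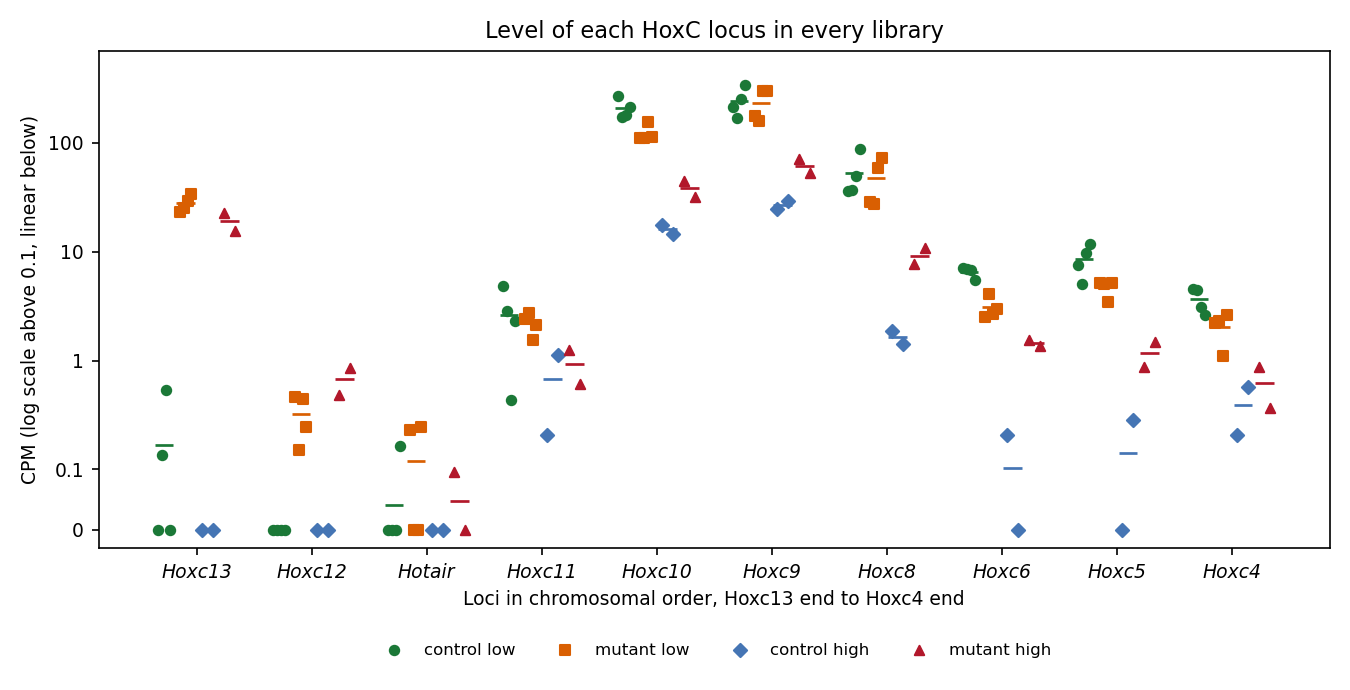
Level of each HoxC locus in every library, in CPM on an axis that is logarithmic above 0.1 and linear below, with loci in chromosomal order. Points are single libraries and short lines are group means; Hoxc13 and Hoxc12 are the genes at 0 or close to 0 in the controls and present in all 6 mutant libraries, and Hoxc10, Hoxc9 and Hoxc8 carry most of the signal in each group.

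Hoxc13 (uc007xwv.1, chr15:102751562-102759245), best known as a regulator of keratin genes in hair and nail, was nearly silent in control cells and present in every mutant library. The control low libraries held 0, 0.136, 0.540 and 0 CPM, from 6 fragments in all, 5 of them in replicate 3. The mutant low libraries held 23.2, 25.1, 29.2 and 33.8 CPM, from 1046 fragments. Both control high libraries were at 0, and the mutant high libraries held 22.8 and 15.4 CPM. Mutant and control libraries did not overlap in either population.

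In low cells Hoxc13 rose by 7.30 ± 0.58 on the log2 scale (SE; edgeR adjusted p = 6.99e-06), higher in 4 of 4 mutant libraries. The ratio of scaled fragments was 178, with an exact 95% interval of 81.6 to 487 that covers counting error only. The control side of that ratio rests on 1 library: without control low replicate 3 the fitted log2 change was 9.11. In high cells the gene was 54.3-fold higher in mutant libraries than the floor set for control, and the exact 95% lower limit of the ratio was 43.9. The difference passed the test (edgeR adjusted p = 2.11e-04). Hoxc13 passed the filter on low counts only through its mutant libraries. The level in mutant high cells did not pass the test against mutant low cells, with a log2 difference of -0.54 and a 95% interval of -1.54 to 0.45 (edgeR adjusted p = 0.405).

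Hoxc12 (uc007xww.1, chr15:102767284-102768948), the next gene along, showed the same absence from controls at a far lower level. It had no fragment in any of the 6 control libraries. The mutant low libraries held 4, 1, 4 and 3 fragments (0.461, 0.152, 0.444 and 0.243 CPM), and the mutant high libraries 5 and 7 fragments (0.483 and 0.861 CPM). Against the floor this was 4.09-fold higher in mutant low and 1.80-fold higher in mutant high cells, with no test. The exact lower limits of the ratio, taken as for Hoxc13, were 2.84 in mutant low and 1.25 in mutant high cells. Per kilobase, Hoxc12 in mutant low cells had 0.315 ± 0.147 CPM per kb (SD, n = 4) and Hoxc13 11.3 ± 1.92 CPM per kb, and these ranges did not overlap.

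Hotair (uc007xwx.1, chr15:102774493-102778161, minus strand), a non-coding RNA studied for its ties to Polycomb, lies between Hoxc12 and Hoxc11 and overlaps neither in the deposited positions. It held 2 fragments over the control low, 5 over the mutant low, 0 over the control high and 1 over the mutant high libraries. That ratio of mutant low to control low fragments, 2.56, had an exact interval of 0.418 to 26.8, so no difference was detectable at this depth. Mir196a-2 (uc012aae.1, chr15:102803781-102803865) and Mir615 (uc012aag.1, chr15:102845341-102845432) are precursors of microRNAs, and each held 0 fragments in all 12 libraries.

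Beyond the Hoxc13 end, no tested gene of the cluster was called higher in mutant low than in control low cells. Of the 8 tested loci, 1 was higher (Hoxc13) and 2 were lower (Hoxc10 and Hoxc6), where 8.03% of all 13749 loci tested were called, 4.82% higher and 3.21% lower. The median log2 change over the 8 loci was -0.51, beside -0.06 over all loci tested. At an unadjusted p under 0.05, 5 of the 8 passed, beside 2798 of the 13749 loci tested.

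Hoxc10 was at 110, 110, 155 and 112 CPM in the mutant low libraries, all below the lowest control low library at 174 CPM. Its log2 change was -0.78 ± 0.21 (SE; edgeR adjusted p = 0.030), 1.72-fold lower. Hoxc6 (uc007xxc.1, chr15:102829145-102842312), a gene of the lower neck and thorax, was at 7.01, 6.92, 6.80 and 5.49 CPM in the control low libraries. In the mutant low libraries it was at 2.54, 4.11, 2.66 and 3.002 CPM. Every mutant library was below every control library, with a log2 change of -1.09 ± 0.29 (SE; edgeR adjusted p = 0.0293), 2.13-fold lower.

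These 2 calls sat close to the threshold. Hoxc10 lost its call without control low replicate 1 or 4 or mutant low replicate 1, 2 or 4, with log2 changes of -0.64 to -0.78. Hoxc6 lost its call without control low replicate 1, 2 or 3 or mutant low replicate 1, 3 or 4, with log2 changes of -0.99 to -1.08.

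Hoxc5 and Hoxc4, anterior genes at the far end of the cluster, did not pass the test. Hoxc5 (uc007xxe.1, chr15:102844439-102847860) was at 7.48, 5.02, 9.72 and 11.7 CPM in the control low libraries, and at 5.19, 5.02, 3.44 and 5.19 CPM in the mutant ones. The groups overlapped through control low replicate 2, and the log2 difference was -0.85 ± 0.33 (SE; edgeR adjusted p = 0.149). Hoxc4 (uc007xxf.1, chr15:102849367-102867283) was at 4.56, 4.48, 3.13 and 2.62 CPM in the control low libraries, and at 2.19, 2.28, 1.11 and 2.60 CPM in the mutant ones. Its groups were barely apart, at 2.62 against 2.60 CPM, and the log2 difference was -0.84 ± 0.37 (SE; edgeR adjusted p = 0.214).

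Hoxc9, Hoxc8 and Hoxc11 gave small differences in low cells that did not pass the test. In mutant low libraries Hoxc9 was at 174, 159, 299 and 300.2 CPM, a log2 difference of -0.06 with a 95% interval of -0.62 to 0.50. Hoxc8 was at 28.5, 27.4, 58.9 and 73.1 CPM, a log2 difference of -0.17 with an interval of -0.93 to 0.59. In both genotypes the levels of Hoxc9 and Hoxc8 were lower in replicates 1 and 2 than in replicates 3 and 4. Hoxc11 (uc007xwy.1, chr15:102784957-102787132) was at 4.79, 2.85, 0.432 and 2.30 CPM in the control libraries and at 2.42, 2.74, 1.55 and 2.11 CPM in the mutant ones, an overlap with an interval of -1.37 to 0.91 on the log2 scale.

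Replicates 1 and 2 of the low groups carry description numbers 4 to 7 and replicates 3 and 4 carry 8 to 11, so the comparison was also made within each of these subsets, a choice made after seeing the data. Hoxc13 rose in both, by 8.29 and 7.00 on the log2 scale. Hoxc10 gave -0.98 in the first and -0.54 in the second, and passed the test only in the first (edgeR adjusted p = 0.0474 and 0.227). Hoxc6 gave -1.05 and -1.08, and passed in neither (edgeR adjusted p = 0.158 and 0.126). Deviations from group means over all tested loci correlated at 0.0858 to 0.498 between control and mutant low libraries of the same subset. Across subsets they correlated at -0.453 to -0.0779. In the high groups, control carries numbers 6 and 8 and mutant 5 and 7, so the subsets are unbalanced there. No fit carried the subset itself as a covariate, and its part in the high-cell mutant effect was not tested.

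Marker RNAs of several cell types moved between the low groups. The 6 nephron progenitor markers summed to 2401 to 3287 CPM in control and 1402 to 1710 CPM in mutant cells, with 2 of 6 called lower and none at 0 in any of these libraries. The 3 matched stroma markers (Foxd1, Pdgfra and Meis1) summed to 35.4 to 59.9 CPM in control and 80.2 to 148 CPM in mutant cells, with 2 of 3 called higher. Committing nephron markers (Pax8 and Jag1) summed to 198 to 296 and 491 to 1393 CPM, with 2 of 2 called higher. The 3 matched podocyte markers summed to 29.2 to 58.96 and 95.9 to 209.6 CPM, with both tested ones called higher. All 4 tubule markers were called lower, as was 1 marker each of the immune, endothelium and red cell lists, and of 4 ureteric bud markers 1 was called higher and 1 lower. The part of any of these in the Hoxc10 and Hoxc6 results was not tested.

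**Figure D2:**
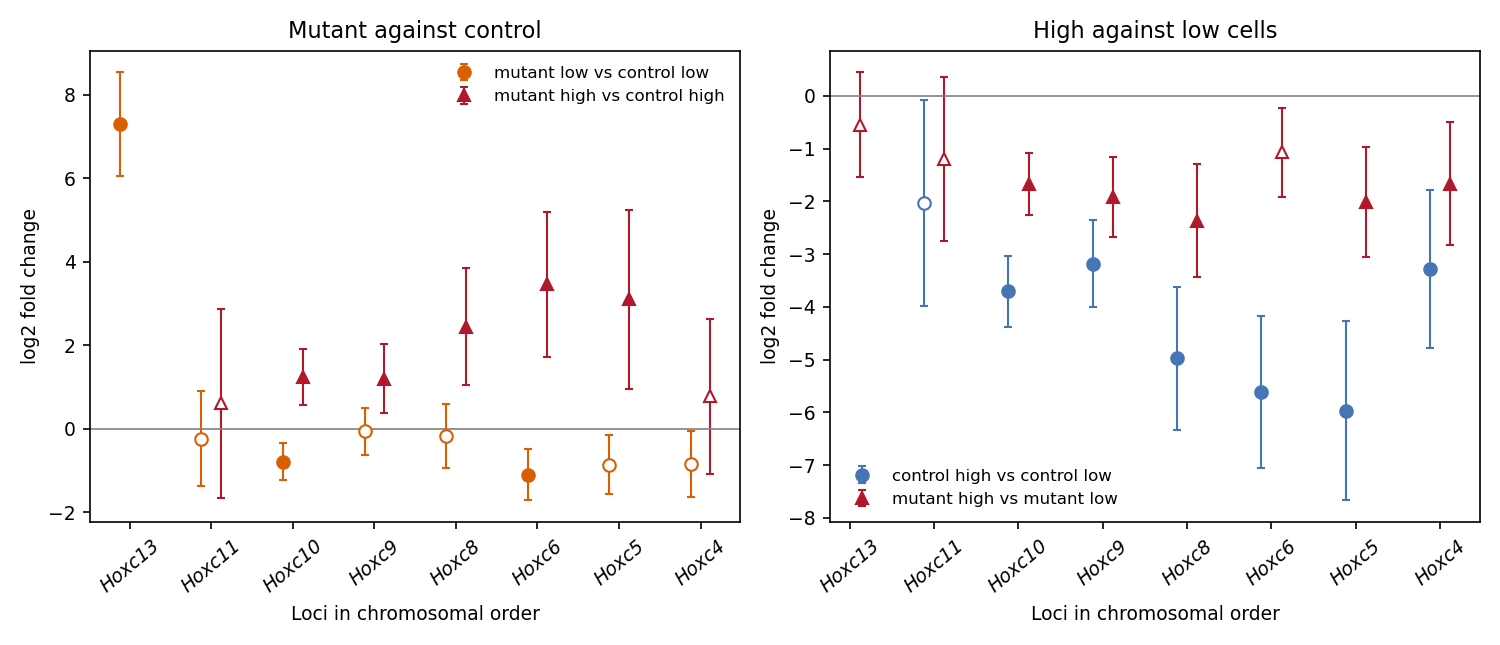
Log2 fold changes of the tested HoxC genes with 95% intervals, in chromosomal order, for mutant against control (left) and high against low cells (right); filled symbols passed the test (edgeR, adjusted p under 0.05) and open symbols did not. Hoxc13 is drawn only where both groups held fragments, and Hoxc6, Hoxc5 and Hoxc4 in control high rest on 1, 1 and 3 fragments; right of Hoxc13, the low-cell changes lie at or below 0 and the high-cell changes above it.

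In high cells the mutant effect covered most of the cluster. Of the 8 tested loci, 6 were higher in mutant than in control libraries (Hoxc13, Hoxc10, Hoxc9, Hoxc8, Hoxc6 and Hoxc5) and 0 lower, where 27.5% of all loci tested were called, 16.3% higher and 11.2% lower. At an unadjusted p under 0.05 the same 6 of 8 passed, beside 5380 of the 13749 loci tested. The median log2 change was 1.84 over the 8 loci, beside 0.08 over all loci tested.

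Hoxc10 was at 17.7 and 14.4 CPM in control high and 44.7 and 31.5 CPM in mutant high libraries, a log2 change of 1.24 ± 0.31 (SE; edgeR adjusted p = 0.00883). Hoxc9 was at 24.7 and 28.9 CPM in control high and 70.5 and 52.9 CPM in mutant high libraries, a log2 change of 1.20 ± 0.39 (SE; edgeR adjusted p = 0.0320). Hoxc8 was at 1.87 and 1.42 CPM in control high and 7.63 and 10.7 CPM in mutant high libraries, a log2 change of 2.45 ± 0.65 (SE; edgeR adjusted p = 0.0132). In all 3 genes both mutant libraries exceeded both control libraries, by 2.37-fold, 2.30-fold and 5.45-fold in the fit.

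Hoxc6 and Hoxc5 were almost absent from control high cells. Each had 1 fragment there, Hoxc6 in replicate 1 and Hoxc5 in replicate 2. Hoxc6 was at 1.54 and 1.35 CPM in the mutant high libraries, from 27 fragments, with a fragment ratio of 12.2 and an exact 95% interval of 2.01 to 499. Hoxc5 was at 0.869 and 1.48 CPM, from 21 fragments, with a ratio of 9.47 and an interval of 1.52 to 392. Both passed the test (edgeR adjusted p = 0.00635 and 0.0330), and the intervals show how little the control counts constrain the size.

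Hoxc11 and Hoxc4 overlapped between the high groups. Hoxc11 was at 0.208 and 1.13 CPM in control high and 1.25 and 0.615 CPM in mutant high libraries, a log2 difference of 0.61 with a 95% interval of -1.66 to 2.88. Hoxc4 was at 0.208 and 0.566 CPM in control high and 0.869 and 0.369 CPM in mutant high libraries, with a fragment ratio of 1.80 and an exact interval of 0.487 to 9.96.

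With 2 libraries a group, the count of 6 depended on single libraries: leaving out control high replicate 1 left 3 calls, leaving out control high replicate 2 left 2, and leaving out either mutant high library left 4. With control high replicate 1 or 2 left out, Hoxc6 or Hoxc5 respectively had no control fragment to set the size of its change. Hoxc13 was called in each of these; the other 5 were lost in at least 1 of them, with log2 changes that stayed at or above 0.97, and DESeq2 left out Hoxc6 and Hoxc5 (adjusted p = 0.0515 and 0.0892). The 6 progenitor markers summed to 66.0 to 156 CPM in control high and 250 to 295 CPM in mutant high cells, with 3 of 6 called higher. The stroma markers summed to 14.96 to 15.9 and 80.4 to 89.9 CPM, with 3 of 3 called higher. The committing nephron markers summed to 152 to 205 and 415 to 607 CPM, and the podocyte markers to 26.3 to 47.6 and 77.96 to 245 CPM, with both tested markers of each list called higher. The immune markers summed to 342 to 408 and 758 to 965 CPM, with 1 of 3 called higher. Cd74 carried most of the immune sums, with group means of 318 and 779 CPM, and Csf1r and Ptprc overlapped between the groups. The ureteric bud markers (Ret, Wnt11, Gata3 and Calb1) summed to 2865 to 3826 and 392 to 786 CPM, with 2 called higher and 1 lower. Calb1 carried most of these sums and set their fall, with group means of 3282 and 449 CPM. Ret and Wnt11 went the other way, with means of 0.349 and 9.21 CPM for control against 7.33 and 71.4 CPM for mutant. Gata3 overlapped between the groups. The tubule sums given above were lower in mutant high cells, with 2 of 4 markers called lower. The part of these shifts in the HoxC result was not tested.

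The high populations held less HoxC RNA than the low populations in both genotypes. Plus-strand HoxC fragments summed to 400 to 660 CPM in the control low libraries and 337 to 551 CPM in the mutant low ones, an overlap. They summed to 44.9 and 46.7 CPM in control high and to 151 and 115 CPM in mutant high libraries, so the mutant high libraries lay between the control high and the low ones.

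In control cells 6 of the 8 tested loci were lower in the high libraries and 0 higher, where 52.3% of all loci tested were called, 27.0% lower and 25.3% higher. The log2 changes were -3.70 for Hoxc10, -3.18 for Hoxc9 and -4.98 for Hoxc8, falls of 13-fold, 9.09-fold and 31.5-fold (edgeR adjusted p = 3.72e-07, 8.84e-06 and 1.68e-05). Hoxc6, Hoxc5 and Hoxc4 were also called, with fragment ratios of 0.0186 (exact 95% interval 4.69e-04 to 0.105), 0.0134 (3.39e-04 to 0.0753) and 0.101 (0.0206 to 0.302). Hoxc11 gave -2.03 on the log2 scale and did not pass (edgeR adjusted p = 0.0747). It passed in 2 of 16 alternatives, without control low replicate 3 (-2.37) and with the replicate number of the titles as a block (-2.36). Hoxc13 was at 0 in control high against 6 fragments in control low, which is too few to compare.

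The median over the 8 loci was -3.64, beside -0.13 over all loci tested. With RLE scaling in place of TMM the median of all loci moved to -0.03, and the 6 HoxC calls were made under that scaling too. All 6 progenitor markers were called lower in the control high libraries, and 3 of 4 tubule markers higher; their part in the result was not tested.

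In mutant cells 5 of the 8 loci were lower in high than in low cells and 0 higher, where 32.2% of all loci tested were called, 13.2% lower and 19.0% higher. The changes were -1.68 for Hoxc10, -1.92 for Hoxc9, -2.36 for Hoxc8, -2.01 for Hoxc5 and -1.67 for Hoxc4 on the log2 scale (edgeR adjusted p = 3.21e-04, 8.19e-04, 0.00238, 0.00566 and 0.0301). Hoxc6 gave -1.07 and missed the threshold (edgeR adjusted p = 0.0515), except without mutant low replicate 3, at -1.13. Hoxc4 lost its call without mutant low replicate 1 or 4 or mutant high replicate 2, with changes of -1.23 to -1.65. Low and high libraries share the description numbers 5 to 8, 1 pair for each, and with that number as a block Hoxc4 also lost its call, at -1.83 (edgeR adjusted p = 0.0817). Hoxc5 lost its call without mutant high replicate 1, at -1.68.

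The difference between the mutant effects in high and low cells was tested directly as an interaction. It was positive and passed the test for 4 of 8 loci, and negative for 0, where 10.3% of all loci tested were called, 7.29% positive and 3.05% negative. The 4 were Hoxc10 (2.03 ± 0.37 on the log2 scale, SE; edgeR adjusted p = 0.00438), Hoxc8 (2.61 ± 0.74; edgeR adjusted p = 0.0390), Hoxc6 (4.55 ± 0.84; edgeR adjusted p = 0.00452) and Hoxc5 (3.96 ± 1.04; edgeR adjusted p = 0.0264). The Hoxc6 and Hoxc5 values each rest on 1 fragment in control high cells. For Hoxc10 and Hoxc6 the called mutant effect was thus opposite in sign in the 2 populations, lower in low cells and higher in high cells.

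Hoxc10 and Hoxc6 kept this call in all 21 alternatives of the interaction, while Hoxc8 kept it in 12 and Hoxc5 in 15. Hoxc8 was lost without control low replicate 3 or 4, mutant low replicate 1, or any of the 4 high libraries, at 2.24 to 2.85. Hoxc5 was lost without control high replicate 1 or mutant high replicate 2, at 2.83 and 3.54. Hoxc9 gave 1.26 and missed the threshold (edgeR adjusted p = 0.0993), but passed with either replicate block, at 1.27 by title number and 1.505 by description number (edgeR adjusted p = 0.0193 and 0.0377). Hoxc5 was lost with the block by description number, at 3.55 (edgeR adjusted p = 0.101). Hoxc13 was not called (edgeR adjusted p = 0.501), with no fragment in control high to set its size there.

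Shares within the cluster do not depend on scaling between libraries. Hoxc13 made up 0.0352% ± 0.0503 of plus-strand HoxC fragments in control low and 6.44% ± 0.894 in mutant low cells (SD, n = 4). It made up 0 in both control high libraries, where 3 fragments would be 1.39% and 1.82%, and 15.1% and 13.4% in the mutant high libraries. Its share was thus larger in the mutant high than in the mutant low libraries, without overlap, while its CPM level was not higher there.

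The share of Hoxc10 was 40.4% ± 7.97 in control low and 28.4% ± 5.26 in mutant low cells, and that of Hoxc9 45.7% ± 5.93 and 52.0% ± 4.08 (SD, n = 4). The 4 genes from Hoxc13 to Hoxc10 together held 50.8%, 44.2%, 36.1% and 32.4% in control low and 39.0%, 41.1%, 33.7% and 27.8% in mutant low libraries, which overlapped. Hoxc12 to Hoxc10 alone, out of the same total with Hoxc13 kept in it, held 50.8%, 44.2%, 36.0% and 32.4% in control low libraries. In mutant low libraries they held 32.3%, 33.6%, 28.5% and 21.5%, which overlapped with control. The Hoxc13 fragments in that total lower the mutant low values.

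**Figure D3:**
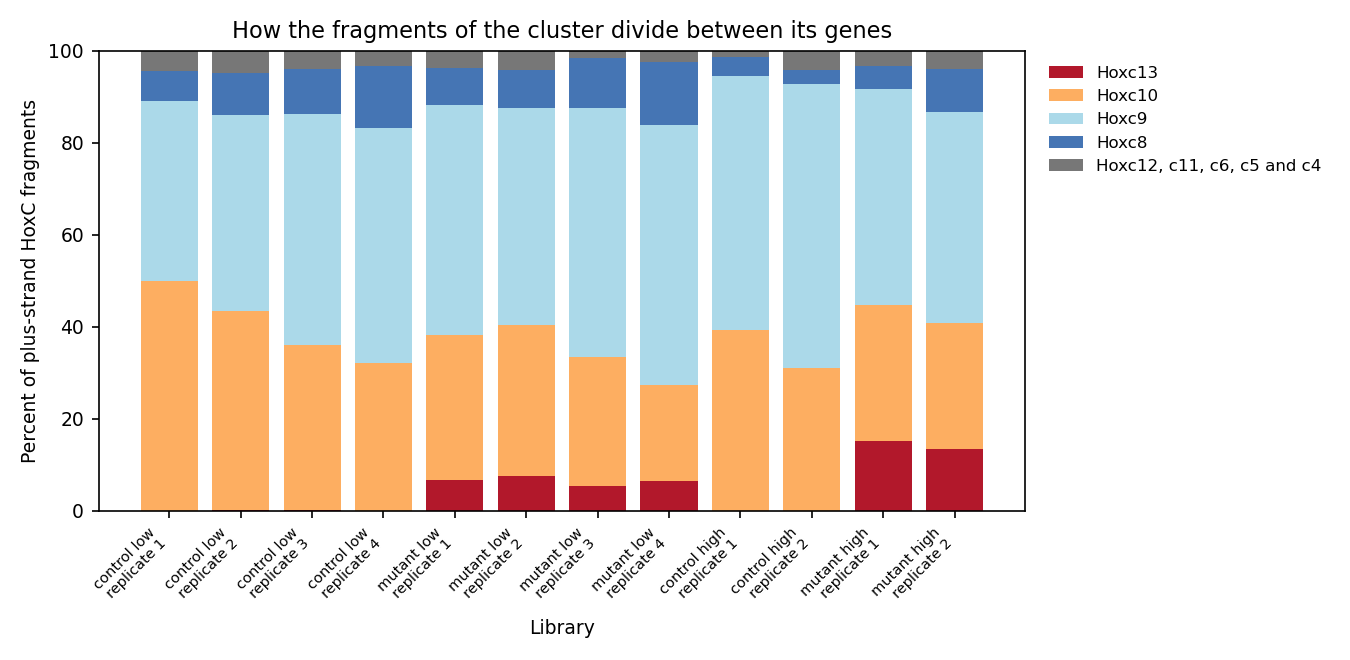
Percent of plus-strand HoxC fragments held by each gene, 1 bar per library, with Hoxc12, Hoxc11, Hoxc6, Hoxc5 and Hoxc4 summed. Hoxc13 takes 5.30% to 7.46% of the mutant low bars and 13.4% to 15.1% of the mutant high bars, against at most 0.107% in a control.

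Most loci had a single transcript in the table. Hoxc6 and Hoxc4 had 2 each, and the authors' estimates placed nearly all fragments on the longer one. For Hoxc6 this was 379 fragments over 12 libraries, against 0.151 on the shorter uc007xxd.1. For Hoxc4 it was 223 against 0.999 on uc007xxg.1. No change of transcript could be seen at these counts.

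The other group 13 genes were also low or absent in controls and present in mutants. Hoxa13 had no fragment in the 6 control libraries and was at 10.5, 7.46, 3.89 and 6.73 CPM in mutant low and 17.7 and 5.29 CPM in mutant high libraries. Hoxd13 was at 0.117, 0, 0.432 and 0.164 CPM in control low libraries and 37.9, 39.7, 56.5 and 87.1 CPM in mutant low ones. It was at 0 in both control high libraries and at 20.9 and 25.5 CPM in the mutant high ones. Hoxb13 had no fragment in controls and was at 0.162 to 1.52 CPM in mutant low and at 2.61 and 2.21 CPM in mutant high libraries.

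In low cells Hoxa13 was 87.9-fold and Hoxb13 8.18-fold higher in mutants against the floor, with exact 95% lower limits of 71.0 and 6.15. Hoxd13 had a fragment ratio of 317 (exact 95% interval 154 to 790), beside 178 for Hoxc13. All 4 genes passed the test in low cells (edgeR adjusted p = 2.03e-04 for Hoxa13, 0.0245 for Hoxb13 and 7.75e-07 for Hoxd13). They also passed in high cells (edgeR adjusted p = 0.00124, 0.0214 and 1.08e-04). Each of the 4 genes passed the filter on low counts only through its mutant libraries, since no control library held more than 0.540 CPM. The longest runs of identical bases given with the homeobox sequences were 16 or fewer, taken over the whole GENCODE transcripts. That of Hoxa13 had 1309 bases, with its homeobox ending at base 1234, against 2461 bases for Hoxc13. Any Hoxa13 sequence beyond that transcript was not compared. Whether fragments of these paralogues were assigned to the wrong gene was not tested.

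**Figure D4:**
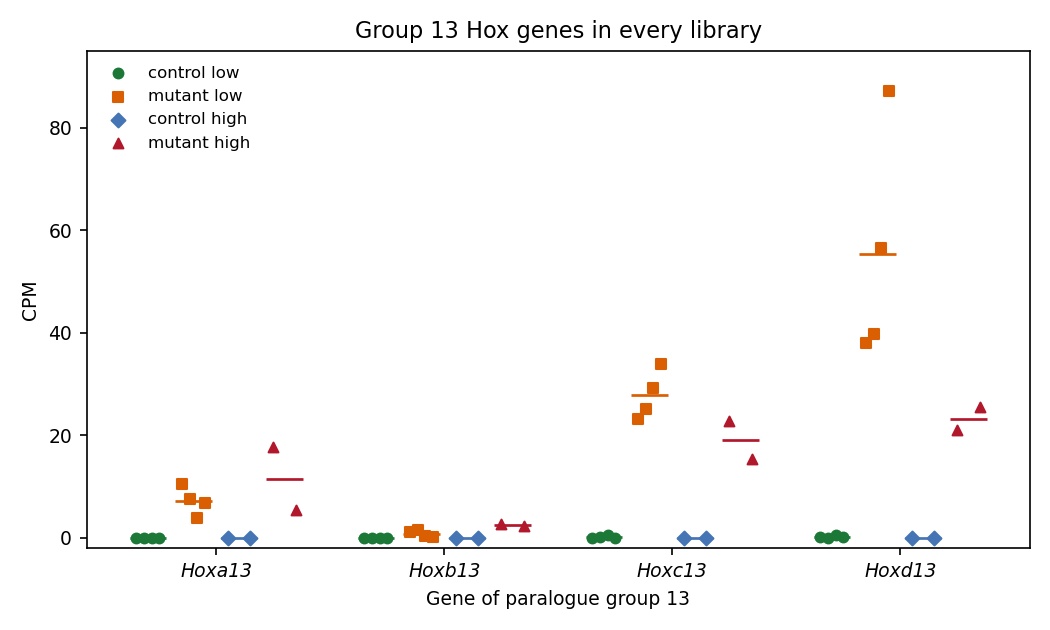
Level of the 4 group 13 Hox genes in every library, in CPM on a linear axis; points are single libraries and short lines are group means. Control libraries lie at 0.540 CPM or below for each gene, and Hoxd13 in mutant low replicate 4 is the highest at 87.1 CPM.

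The paralogues of Hoxc11 and Hoxc10 were measured in the same fit. Hoxa11 and Hoxd11, named in the background above, were at 124 ± 39.5 and 179 ± 75.0 CPM in control low cells (SD, n = 4), where Hoxc11 was at 2.59 ± 1.79 CPM. Neither paralogue passed the mutant test in low cells (edgeR adjusted p = 0.234 and 0.858), and Hoxa11 rose in mutant high cells by 2.26 on the log2 scale (edgeR adjusted p = 0.00163). Hoxa10 fell in mutant low cells by 0.77 on the log2 scale (edgeR adjusted p = 0.0348), beside -0.78 for Hoxc10. Hoxd10 gave -0.48 there and did not pass (edgeR adjusted p = 0.138). In high cells Hoxd10 was called lower in mutants, at -1.23 on the log2 scale (edgeR adjusted p = 0.00347), where Hoxc10 was called higher, at 1.24. Hoxa10 measured 58.0 and 58.3 CPM in control high and 60.0 and 56.3 CPM in mutant high libraries, which overlapped. Differences between paralogues were not tested.

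Across whole clusters, the tested HoxA, HoxB and HoxD loci called higher in mutant low cells were 2 of 9, 2 of 12 and 2 of 7, and those called lower 1, 0 and 0, beside 1 higher and 2 lower of 8 in HoxC. In mutant high cells the calls were 4 higher and 0 lower in HoxA, 2 and 2 in HoxB and 2 and 3 in HoxD, beside 6 and 0 in HoxC. Over all loci tested, 4.82% were called higher and 3.21% lower in mutant low cells, and 16.3% and 11.2% in mutant high cells. Differences between clusters were not tested.

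The loci outside the cluster whose log2(CPM + 0.5) followed Hoxc13 most closely over the 12 libraries were Hoxd13, Pax6 and En2, with Pearson's r of 0.993, 0.991 and 0.989. For Hoxc9, the locus with the highest mean level, they were Wt1os, Itih5 and Zfp13, with r of 0.994, 0.992 and 0.991. These values describe 12 points that fall into 4 groups and share their libraries. Pax6 averaged 0.203, 14.0, 0 and 7.58 CPM in control low, mutant low, control high and mutant high cells, in the order of the groups seen for Hoxc13.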

How the data were processed

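Per the labels, cDNA was made with the SMART-Seq v4 kit and libraries with a NEBNext kit; per the submitters' processing notes, the tools were Bowtie2, HTSeq and DESeq2 (roles not given) and the build mm9. The deposited values are estimated counts of fragments per UCSC transcript (CuffDiff2 raw fragments, per the file's title), not normalized. Strand use is not given in the sources used here, so sense and antisense fragments cannot be told apart. Of 55418 rows, 303 had no position and held 0 fragments. Transcripts overlapping on 1 strand were summed to 26699 loci and rounded; 99.6% to 99.9% of sums were whole within 0.01. Deposited starts count from 0 and are printed counting from 1.

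The table holds no gene names. Loci were named by matching spans to GENCODE M21 and RefSeq (GRCm38); all HoxC rows matched, with end gaps of at most 457 bp. Of the stroma markers, Col1a1 was not matched.

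All 12 libraries entered 1 edgeR 4.0.16 quasi-likelihood fit of 4 groups (R 4.3.3; TMM, filterByExpr, robust), with Benjamini-Hochberg adjustment over 13749 loci and a two-sided threshold of 0.05. Alternatives were RLE scaling, 2 other filters, DESeq2 1.42.0, limma-voom (limma 3.58.1), leaving out each library, replicate blocks, only the groups compared and single transcripts. On 12167 simulated loci in the low design, 45 of 50 log2 changes of -2, 44 of 50 of 2, 9 of 50 of -1 and 13 of 50 of 1 were recovered. Intervals and floors cover counting error only. Every HoxC row was described; likeness named the 3 loci with the highest Pearson's r. The members and gene lists were chosen with earlier results of these data known.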

Additional observations from a re-analysis of the deposited data

Results flagged for a closer look

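Among the 16 sets of 4 low-cell libraries examined, 1 library stood apart from the other 3 in 3 sets, where chance gives about 1 in 20. Hoxc10 in mutant low replicate 3 was at 155 CPM, with the other 3 between 110 and 112 CPM. Hoxc5 in mutant low replicate 3 was at 3.44 CPM, below the others. Hoxc6 in control low replicate 4 was at 5.49 CPM, below the others.

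By the interaction test, mutants departed from controls differently in high and in low cells for Hoxc10 (2.03 on the log2 scale), Hoxc8 (2.61), Hoxc6 (4.55) and Hoxc5 (3.96).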

How the results depend on the processing

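Of 675 values recomputed for single genes, 598 kept their direction and their side of the threshold, 58 lost the call, 5 gained it and 14 reversed. Hoxc13 was called in all 19 alternatives in low and all 13 in high cells. The low-cell count of 3 became 1 with no filter on low counts, 1 with single transcripts and 1 with description numbers above 7, and ran from 1 to 3 under the other settings. Leaving out 1 library gave 1 to 2 calls in low cells, 2 to 4 in high cells (6 with all libraries), 6 to 7 for control high against low, 4 to 6 for mutant high against low and 2 to 4 for the interaction. The mutant high against low count of 5 became 3 with single transcripts, and the interaction count of 4 became 2 with limma-voom and 2 with single transcripts. For all loci, DESeq2 split the interaction calls into 1055 positive and 720 negative, where edgeR gave 1002 and 420. The share of the genes from Hoxc13 to Hoxc10 differed by -5.48 percentage points (mutant low minus control low), and by -8.30 to -2.16 without single libraries.

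Reversed values were all uncalled. In low cells, leaving out single libraries gave -0.58 to 0.24 for Hoxc11, -0.21 to 0.14 for Hoxc9 and -0.46 to 0.20 for Hoxc8 (log2). Hoxc11 was above 0 without control low replicate 1, and Hoxc9 and Hoxc8 without control low replicate 4 or mutant low replicate 1 or 2. Hoxc11 gave 0.15 with limma-voom and 0.41 with description numbers above 7, where Hoxc9 gave 0.042. In high cells Hoxc11 ran from -0.21, without control high replicate 1, to 2.12. In the interaction it ran from -0.0036, without the same library, to 2.32, and gave -0.30 with the block by description number; Hoxc13 gave -0.51 with limma-voom. The cause was not tested.

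Title numbers were shared between groups, but same-numbered low libraries deviated together with correlations of 0.0858 to 0.498, over 0.1 in 2 of 4 pairs, so they were not taken as pairs. With the replicate block the calls were 3, 6, 7, 5 and 5 for the low, high, control high against low, mutant high against low and interaction comparisons. With the block by description number the last 3 were 6, 4 and 4. The block by title number added Hoxc11 for control high against low and Hoxc9 for the interaction; that by description number lost Hoxc4 for mutant high against low, and lost Hoxc5 and added Hoxc9 for the interaction. Not every low library correlated best with its own number. With only the groups compared, Hoxc11, Hoxc6, Hoxc5 and Hoxc4 were not tested in high cells. Depth limits Hoxc12, Hotair and the control high values of Hoxc6, Hoxc5 and Hoxc4.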
